A study of Homo sapiens with 2 samples.

Results

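The S100 and annexin genes form families of small and of membrane-bound calcium-binding proteins. The 30 members described here are the genes of the deposited count table, out of 26485, whose symbol is S100 followed by A, B, P or Z and an optional number, or ANXA followed by a number. They comprise 18 S100 genes and 12 annexins. S100G, which that pattern does not take, had 0 counts in both libraries. RNA was sequenced from SK-LMS-1, a line from a leiomyosarcoma of the vulva, and from SK-UT-1, a line from a uterine leiomyosarcoma, tumours of smooth muscle origin. Both lines had received DMSO, the solvent used for the drugs of the series, which concerns inhibitors of the histone methyltransferase SUV39H2 and of poly(ADP-ribose) polymerases. The labels give no dose or duration of DMSO and no genotype. Each line was represented by 1 library of 1 established line, so no difference below has a replicate check, no test between the lines was possible and no p-value is given. The comparison asks how the 2 solvent-treated lines differed.

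S100 proteins are small EF-hand proteins that work as dimers. Calcium opens a binding face through which they hold target proteins, annexins among them, and several are also released and act on cell-surface receptors. Annexins bind acidic phospholipids when calcium is present, and through this they take part in membrane repair, vesicle traffic and the control of blood clotting and inflammation. The best known complex of the families is a tetramer of S100A10 and ANXA2, which binds tissue plasminogen activator and plasminogen at the cell surface. S100A11 is a known partner of ANXA1, and S100A6 of ANXA11.

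The libraries held 6906280 counts in SK-LMS-1 cells and 7635850 in SK-UT-1 cells. The level of 1 gene is given as CPM, counts for each 1000000 of a library size scaled by TMM (trimmed mean of M values). Levels of different genes are compared as TPM, the same after division by exon length. Genes reaching 1 CPM in at least 1 library are called measured, and a difference of 2-fold or more is counted. Parentheses after a fold hold its exact 95% limits, which reflect counting error alone and treat fragments as independent. In ratios a count of 0 was set to a floor of 3 counts, which is 0.458 CPM in SK-LMS-1 cells and 0.373 CPM in SK-UT-1 cells. The exact upper 95% limit for 0 counts lay somewhat above this floor. It was 5.34e-05% of the SK-LMS-1 library and 4.83e-05% of the SK-UT-1 library, where the floor was 4.34e-05% and 3.93e-05%. A bulk level is an average, so more cells with a transcript and more transcript per cell cannot be told apart. Of 12 smooth muscle markers 10 were measured, 6 of them higher by 2-fold or more in SK-LMS-1 cells and 3 in SK-UT-1 cells, and the list summed to 1469 CPM in SK-LMS-1 cells and 529 CPM in SK-UT-1 cells. MYOCD, their master regulator, had 0 counts in both libraries and the defining myosin gene MYH11 had 5 counts in SK-LMS-1 cells and 2 in SK-UT-1 cells. CALD1, an actin-binding protein of smooth muscle and other cells, was the most abundant of the 12 markers, at 749 CPM in SK-LMS-1 cells and 343 CPM in SK-UT-1 cells. MYLK had 414 CPM in SK-LMS-1 cells and 9.94 CPM in SK-UT-1 cells. Among the 3 markers that went the other way, ACTA2 was 5.13-fold higher in SK-UT-1 cells (3.97 to 6.72). DES, another of these, had 1 count in SK-LMS-1 cells and 26 in SK-UT-1 cells.

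The promoters of the 7 members on which the comparison turns are shown first, because these genes share protein families and yet differ in promoter type. Each window runs from 250 bases before to 50 bases after the annotated start, from RefSeq on GRCh38.p14, 5′ to 3′ on the strand of the gene. Capitals mark matches on either strand to TATAAA (the TATA box), GGGCGG (the GC box) and TGANTCA (the AP-1 element). No 2 different motifs overlapped in these windows, while the GGGCGG copies of ANXA2 share single bases with each other. The first 4 genes were higher in SK-UT-1 cells and the last 3 in SK-LMS-1 cells.
ANXA1, chr9:73151615-73151914, plus strand: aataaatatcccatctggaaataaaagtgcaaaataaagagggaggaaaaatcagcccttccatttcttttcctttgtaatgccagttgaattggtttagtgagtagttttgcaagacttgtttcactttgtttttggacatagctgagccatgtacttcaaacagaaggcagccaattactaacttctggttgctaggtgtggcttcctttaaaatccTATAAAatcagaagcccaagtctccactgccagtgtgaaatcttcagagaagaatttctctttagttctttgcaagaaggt
S100A10, chr1:151993810-151994109, minus strand: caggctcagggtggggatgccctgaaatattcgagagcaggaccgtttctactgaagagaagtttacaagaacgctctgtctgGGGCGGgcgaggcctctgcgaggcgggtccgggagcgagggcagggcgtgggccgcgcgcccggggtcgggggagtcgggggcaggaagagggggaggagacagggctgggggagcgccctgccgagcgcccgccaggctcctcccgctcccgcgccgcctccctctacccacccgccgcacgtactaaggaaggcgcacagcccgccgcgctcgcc
S100A11, chr1:152036955-152037254, minus strand: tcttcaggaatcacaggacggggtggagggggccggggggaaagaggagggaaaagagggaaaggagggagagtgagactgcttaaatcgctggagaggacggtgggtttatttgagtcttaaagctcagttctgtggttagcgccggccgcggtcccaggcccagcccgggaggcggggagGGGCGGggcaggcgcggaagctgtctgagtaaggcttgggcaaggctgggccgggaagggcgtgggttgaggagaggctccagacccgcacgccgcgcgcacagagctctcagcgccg
ANXA3, chr4:78551520-78551819, plus strand: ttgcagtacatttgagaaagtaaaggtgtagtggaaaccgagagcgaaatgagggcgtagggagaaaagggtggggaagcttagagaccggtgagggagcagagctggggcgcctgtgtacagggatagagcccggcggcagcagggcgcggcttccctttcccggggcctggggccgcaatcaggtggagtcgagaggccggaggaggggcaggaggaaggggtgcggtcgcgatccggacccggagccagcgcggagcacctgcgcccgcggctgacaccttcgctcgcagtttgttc
ANXA2, chr15:60397937-60398236, minus strand: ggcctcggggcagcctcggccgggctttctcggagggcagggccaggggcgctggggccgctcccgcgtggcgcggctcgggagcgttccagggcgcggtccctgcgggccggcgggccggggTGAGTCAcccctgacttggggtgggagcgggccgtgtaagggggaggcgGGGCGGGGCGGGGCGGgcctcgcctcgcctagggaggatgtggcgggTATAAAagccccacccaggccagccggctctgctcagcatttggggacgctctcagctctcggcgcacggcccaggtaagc
ANXA5, chr4:121696931-121697230, minus strand: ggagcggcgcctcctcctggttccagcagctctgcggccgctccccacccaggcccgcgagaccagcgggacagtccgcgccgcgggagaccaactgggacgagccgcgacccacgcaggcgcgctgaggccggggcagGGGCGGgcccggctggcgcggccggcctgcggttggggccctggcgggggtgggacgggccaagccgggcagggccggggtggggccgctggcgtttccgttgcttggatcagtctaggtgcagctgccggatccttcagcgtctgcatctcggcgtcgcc
S100A16, chr1:153613088-153613387, minus strand: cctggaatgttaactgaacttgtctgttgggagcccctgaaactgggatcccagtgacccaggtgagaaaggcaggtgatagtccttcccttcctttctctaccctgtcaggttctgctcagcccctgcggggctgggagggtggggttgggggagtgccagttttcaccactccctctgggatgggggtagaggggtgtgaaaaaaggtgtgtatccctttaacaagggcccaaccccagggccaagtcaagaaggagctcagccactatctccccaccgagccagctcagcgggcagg

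Of the 30 members, 15 were measured, 6 S100 genes and 9 annexins. SK-LMS-1 had higher levels of S100A16, ANXA5, ANXA2 and ANXA10, while SK-UT-1 had higher levels of S100A10, S100A11, ANXA1 and ANXA3. The other 7 measured members stayed under 2-fold. Of all 14324 measured genes, 21.9% were higher by 2-fold or more in SK-LMS-1 cells and 18.3% in SK-UT-1 cells. The members' 4 of 15 (26.7%) in each direction thus lay near the background of the table. Counting only intervals wholly beyond 2-fold, 3 members and 15.1% of genes were higher in SK-LMS-1 cells, and 4 members and 10.1% of genes in SK-UT-1 cells. With a 4-fold limit these were 1 member and 11.4% of genes for SK-LMS-1, and 3 members and 7.3% of genes for SK-UT-1. Of the 8 members at 100 CPM or more in the higher line, 2 were higher in SK-LMS-1 cells and 3 in SK-UT-1 cells, against 18.5% and 8.86% of the 3150 genes at that level. At 5 CPM or more the numbers were 3 of 13 members for SK-LMS-1 and 4 of 13 for SK-UT-1, against 19.7% and 14.6% of genes, and with 10 counts in both libraries 3 and 4 of 13 stood against 15.4% and 12.1%. The median log2 ratio of SK-LMS-1 over SK-UT-1 was -0.31 over the 6 measured S100 genes and 0.42 over the 9 measured annexins, against 0.0088 over all measured genes. The S100 mean was -0.04 and the annexin mean 0.12. The S100 median turned to 0.19 when only genes with 10 counts or more in both libraries were kept, which drops S100A2 with 7 counts in SK-LMS-1 cells and 15 in SK-UT-1 cells. ANXA10 passed the filter only through its 7 counts in SK-LMS-1 cells, so its place among the 4 adds nothing to the count.

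**Figure D1:**
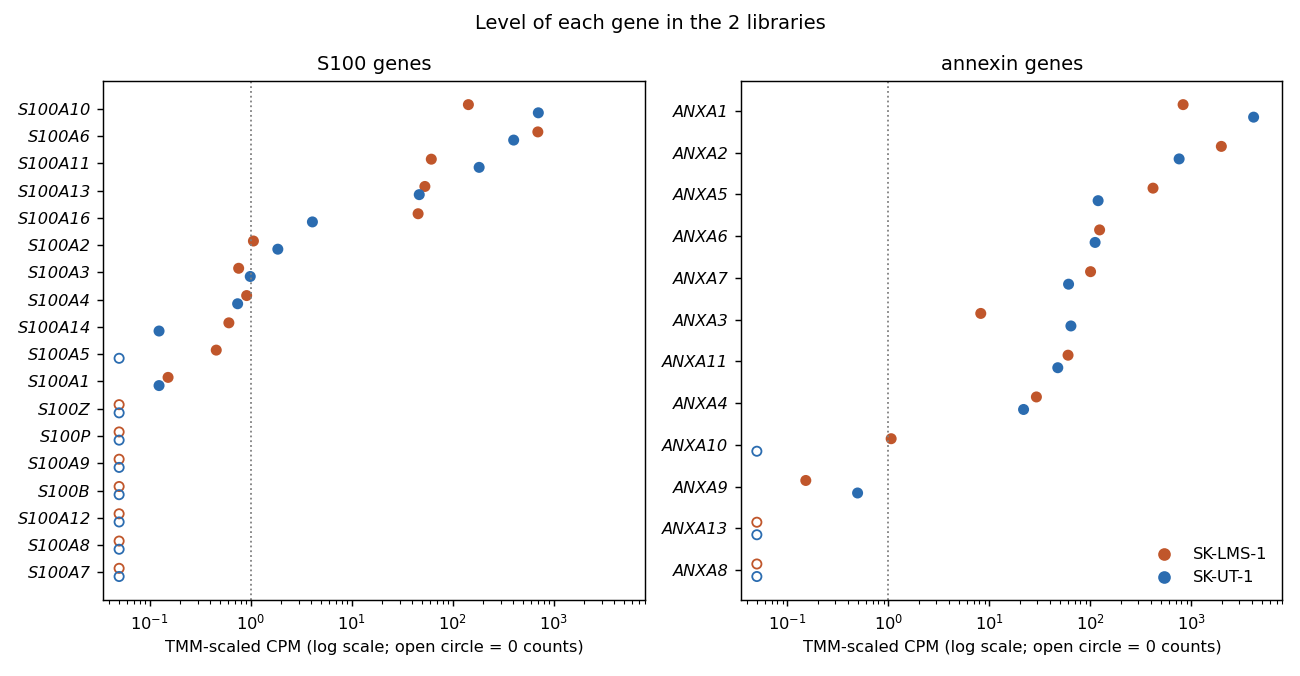
TMM-scaled CPM of the 18 S100 genes (left) and the 12 annexins (right), on a log axis, with 1 point for the SK-LMS-1 library and 1 for the SK-UT-1 library. Open circles stand for 0 counts, and the dotted line for 1 CPM. S100A10 and ANXA1 lie to the right in SK-UT-1 cells, S100A16, ANXA2 and ANXA5 in SK-LMS-1 cells, and 7 S100 genes have open circles for both lines.

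**Figure D2:**
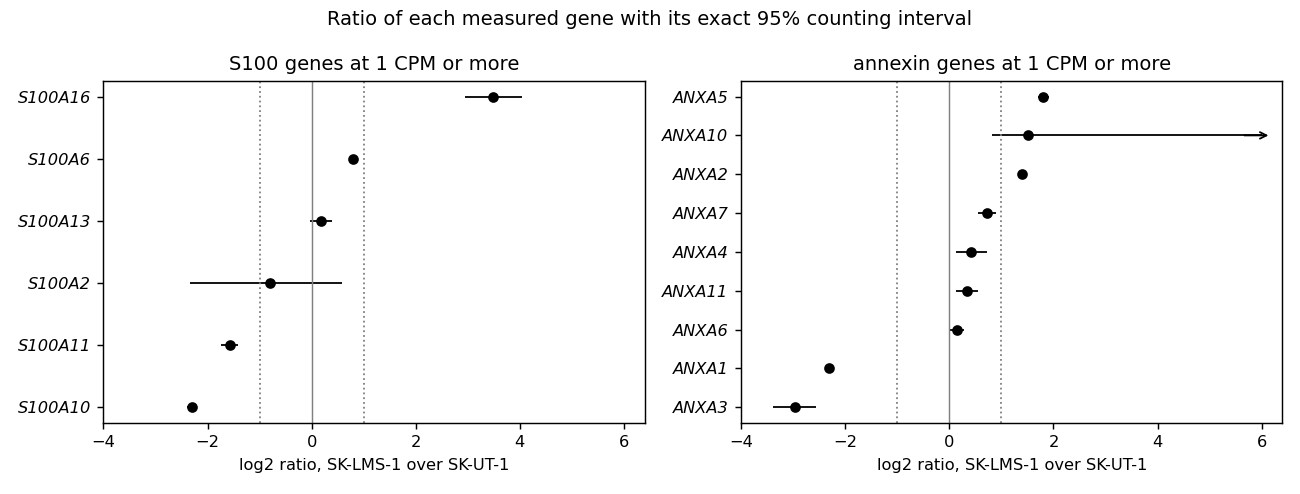
Log2 ratio of SK-LMS-1 over SK-UT-1 for the 15 measured members, with exact 95% counting intervals as bars. Dotted lines mark 2-fold. S100A16 stands at 3.48 and ANXA3 at -2.97, and the interval of ANXA10, which had 0 counts in SK-UT-1 cells, is open to the right.

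S100A10, the annexin 2 light chain, had 941 counts in SK-LMS-1 cells and 5693 in SK-UT-1 cells. Its level was 144 CPM in SK-LMS-1 cells and 707 CPM in SK-UT-1 cells, 4.93-fold higher in SK-UT-1 cells (4.60 to 5.28). It was the most abundant S100 gene per length in SK-UT-1 cells and the second in SK-LMS-1 cells, at 379 TPM in SK-LMS-1 cells and 2083 TPM in SK-UT-1 cells. S100A11, a dimer that links membranes with ANXA1, had 404 counts in SK-LMS-1 cells and 1477 in SK-UT-1 cells. At 61.7 CPM in SK-LMS-1 cells and 184 CPM in SK-UT-1 cells, it was 2.98-fold higher in SK-UT-1 cells (2.66 to 3.33). These neighbours on the minus strand, S100A10 at chr1:151982910-151994238 and S100A11 at chr1:152032506-152037035 (hg38), were the S100 genes that passed 2-fold towards SK-UT-1.

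S100A16, a widely expressed family member that binds calcium at 1 of its EF-hands, had 299 counts in SK-LMS-1 cells and 33 in SK-UT-1 cells. Its level was 45.6 CPM in SK-LMS-1 cells and 4.10 CPM in SK-UT-1 cells, 11.1-fold higher in SK-LMS-1 cells (7.75 to 16.5). It was the only measured S100 gene higher by 2-fold or more in SK-LMS-1 cells, and it had the largest ratio of all measured members in either direction. It lies at chr1:153606891-153613038 on the minus strand. S100A14, the next S100 gene beyond it on the same strand, had 4 counts in SK-LMS-1 cells and 1 in SK-UT-1 cells, a ratio of 4.91 as counted, without the floor, with an interval of 0.486 to 242. No difference of S100A14 was detectable at this depth.

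S100A6, also called calcyclin and found in proliferating cells, was abundant in both lines. It had 4584 counts in SK-LMS-1 cells and 3245 in SK-UT-1 cells, or 699.6 CPM in SK-LMS-1 cells and 403 CPM in SK-UT-1 cells, and was 1.74-fold higher in SK-LMS-1 cells (1.66 to 1.82), under the 2-fold rule. Per length it was the leading S100 gene of SK-LMS-1, at 2853 TPM in SK-LMS-1 cells and 1834 TPM in SK-UT-1 cells, where S100A10 exceeded it. S100A13, which takes part in the release of FGF1 and IL1A from cells, had 349 counts in SK-LMS-1 cells and 377 in SK-UT-1 cells. Its levels of 53.3 CPM in SK-LMS-1 cells and 46.8 CPM in SK-UT-1 cells differed by less than counting error, with a log2 interval of -0.03 to 0.40. S100A2, an S100 gene of epithelial cells, had 7 counts in SK-LMS-1 cells and 15 in SK-UT-1 cells, and its log2 interval of -2.34 to 0.58 also spanned 0.

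The other 12 S100 genes stayed under 1 CPM in both lines. S100A4, a promoter of cell motility that binds non-muscle myosin, had 6 counts in each library, or 0.916 CPM in SK-LMS-1 cells and 0.745 CPM in SK-UT-1 cells. S100A3, known from hair cuticle, had 5 counts in SK-LMS-1 cells and 8 in SK-UT-1 cells. S100A5 had 3 counts in SK-LMS-1 cells and 0 in SK-UT-1 cells, and S100A1, a regulator of muscle calcium handling, 1 count in each. S100A7, S100A8, S100A9, S100A12, S100B, S100P and S100Z had 0 counts in both libraries. S100A8, S100A9 and S100A12 are the S100 genes of neutrophils and monocytes, S100A7 is a keratinocyte gene, and S100B is a marker of glia and melanocytes.

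Several defining markers of those cell types were at 0 in both libraries. Of 12 myeloid and neutrophil markers 1 was measured, CD14, with 1 count in SK-LMS-1 cells and 9 in SK-UT-1 cells, and PTPRC, SPI1 and LYZ had 0 counts in both. The list came to 0.763 CPM in SK-LMS-1 cells and 2.11 CPM in SK-UT-1 cells. Of 12 keratinocyte markers 4 were measured, and KRT5, KRT14 and KRT1 had 0 counts in both, with a list sum of 9.0 CPM in SK-LMS-1 cells and 19.3 CPM in SK-UT-1 cells. KRT10 was the highest of them, at 5.04 CPM in SK-LMS-1 cells and 8.82 CPM in SK-UT-1 cells, and SFN was 5.39-fold higher in SK-UT-1 cells (2.55 to 13.1). TP63 had 0 counts in SK-LMS-1 cells and 14 in SK-UT-1 cells, and passed the filter only through SK-UT-1 cells. Of the 4 measured, SFN and TP63 were the 2 higher by 2-fold or more in SK-UT-1 cells, and 0 were in SK-LMS-1 cells. Of 12 Schwann cell and melanocyte markers 2 were measured. SOX10 and MLANA had 0 counts in both, and the list sum of 91.4 CPM in SK-LMS-1 cells and 6.96 CPM in SK-UT-1 cells came mostly from MITF, at 87.9 CPM in SK-LMS-1 cells and 1.86 CPM in SK-UT-1 cells. Simple epithelial markers summed to 104 CPM in SK-LMS-1 cells and 48.8 CPM in SK-UT-1 cells, with 7 of 10 measured, 4 of them higher by 2-fold or more in SK-LMS-1 cells and 1 in SK-UT-1 cells. Most of the sum in SK-LMS-1 cells was KRT18, 6.94-fold higher in SK-LMS-1 cells (5.50 to 8.84). KRT19 was 1.94-fold higher in SK-UT-1 cells (1.44 to 2.64), KRT8 had 16.3 CPM in SK-LMS-1 cells and 16.2 CPM in SK-UT-1 cells, and EPCAM had 1 count in SK-LMS-1 cells and 9 in SK-UT-1 cells. Over the 3 markers with 10 counts in both libraries the median log2 ratio was 0.02, and GRHL2 had 0 counts in both lines. The part of these markers in the ratios of the members was not tested.

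ANXA1, the glucocorticoid-induced annexin that dampens inflammation, had 5443 counts in SK-LMS-1 cells and 33364 in SK-UT-1 cells. Its level was 831 CPM in SK-LMS-1 cells and 4145 CPM in SK-UT-1 cells, 4.99-fold higher in SK-UT-1 cells (4.85 to 5.14). It made up 0.0788% of all counts in SK-LMS-1 cells (95% limits 0.0767 to 0.0809) and 0.437% in SK-UT-1 cells (0.432 to 0.442). Per length it ranked 47 among all genes of the table in SK-LMS-1 cells, at 1506 TPM, and 3 in SK-UT-1 cells, at 8384 TPM. ANXA3, which has been linked to neutrophil granules and to tumour growth, had 54 counts in SK-LMS-1 cells and 518 in SK-UT-1 cells. At 8.24 CPM in SK-LMS-1 cells and 64.4 CPM in SK-UT-1 cells it was 7.81-fold higher in SK-UT-1 cells (5.89 to 10.5), the largest ratio among the annexins. In hg38, ANXA1 lies at chr9:73151731-73170394 and ANXA3 at chr4:78551588-78610451, both on the plus strand.

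ANXA2, the heavy chain of the complex with S100A10 and a linker of membranes to actin, had 13013 counts in SK-LMS-1 cells and 6107 in SK-UT-1 cells. Its level was 1986 CPM in SK-LMS-1 cells and 759 CPM in SK-UT-1 cells, 2.62-fold higher in SK-LMS-1 cells (2.54 to 2.70). Per length it ranked 17 in SK-LMS-1 cells and 57 in SK-UT-1 cells among all genes. Its processed pseudogene ANXA2P2, whose near-identical sequence could take part of the reads of either gene, had 146 counts in SK-LMS-1 cells and 69 in SK-UT-1 cells, 2.60-fold higher in SK-LMS-1 cells (1.94 to 3.51), and is uncertain for that reason. ANXA5, the annexin whose protein is used to stain exposed phosphatidylserine, had 2741 counts in SK-LMS-1 cells and 963 in SK-UT-1 cells. It was 3.50-fold higher in SK-LMS-1 cells (3.25 to 3.77), at 418 CPM in SK-LMS-1 cells and 119.7 CPM in SK-UT-1 cells. ANXA2 lies at chr15:60347151-60397986 and ANXA5 at chr4:121667997-121696992, both on the minus strand. ANXA10, a gene of gastric and urothelial cells, had 7 counts in SK-LMS-1 cells and 0 in SK-UT-1 cells. It was 2.87-fold higher in the SK-LMS-1 library against a floor of 3 counts, and the lower end of its exact interval was 1.77.

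The remaining annexins differed little. ANXA7, a gene of vesicle fusion, was 1.65-fold higher in SK-LMS-1 cells (1.47 to 1.86), at 101 CPM in SK-LMS-1 cells and 61.0 CPM in SK-UT-1 cells. ANXA4, an annexin of secretory epithelia, stood at 29.3 CPM in SK-LMS-1 cells and 21.9 CPM in SK-UT-1 cells, 1.34-fold higher in SK-LMS-1 cells (1.09 to 1.65). ANXA11, a tether between RNA granules and lysosomes, stood at 60.3 CPM in SK-LMS-1 cells and 47.7 CPM in SK-UT-1 cells, 1.26-fold higher in SK-LMS-1 cells (1.10 to 1.46). ANXA6, the annexin with a doubled core, stood at 124 CPM in SK-LMS-1 cells and 112 CPM in SK-UT-1 cells, and its log2 ratio of 0.15 was -0.0037 when scaled by library totals. ANXA9 had 1 count in SK-LMS-1 cells and 4 in SK-UT-1 cells, and ANXA8 and ANXA13 had 0 counts in both. ANXA8L1, a near relative of ANXA8, also had 0 counts in both. Reads that fit both genes may have gone uncounted, so the 0 counts of ANXA8 are uncertain.

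The make-up of each family thus differed between the lines. S100A6 held 69.4% of the summed S100 counts in SK-LMS-1 cells and 29.9% in SK-UT-1 cells, and S100A10 held 14.3% in SK-LMS-1 cells and 52.4% in SK-UT-1 cells. Among annexins, ANXA2 held 55.8% in SK-LMS-1 cells and 14.2% in SK-UT-1 cells, and ANXA1 held 23.3% in SK-LMS-1 cells and 77.8% in SK-UT-1 cells. The S100 genes together took 0.0956% of the SK-LMS-1 library (95% limits 0.0933 to 0.0979) and 0.142% of the SK-UT-1 library (0.140 to 0.145). The annexins took 0.338% in SK-LMS-1 cells (0.333 to 0.342) and 0.562% in SK-UT-1 cells (0.557 to 0.567). The annexin sum of 3559 CPM in SK-LMS-1 cells and 5331 CPM in SK-UT-1 cells was 1.5-fold higher in SK-UT-1 cells (1.47 to 1.52), although the median annexin was higher in SK-LMS-1 cells. The direction of the sum rested on ANXA1, since without it the annexins came to 2728 CPM in SK-LMS-1 cells and 1186 CPM in SK-UT-1 cells, 2.30-fold higher in SK-LMS-1 cells (2.24 to 2.36). Without ANXA2 the sum was 2.91-fold higher in SK-UT-1 cells (2.84 to 2.97). The S100 sum of 1008 CPM in SK-LMS-1 cells and 1349 CPM in SK-UT-1 cells likewise rested on S100A10. Without that gene it was 864 CPM in SK-LMS-1 cells and 641 CPM in SK-UT-1 cells, 1.35-fold higher in SK-LMS-1 cells (1.30 to 1.40), and without S100A6 it was 3.07-fold higher in SK-UT-1 cells (2.92 to 3.22).

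**Figure D3:**
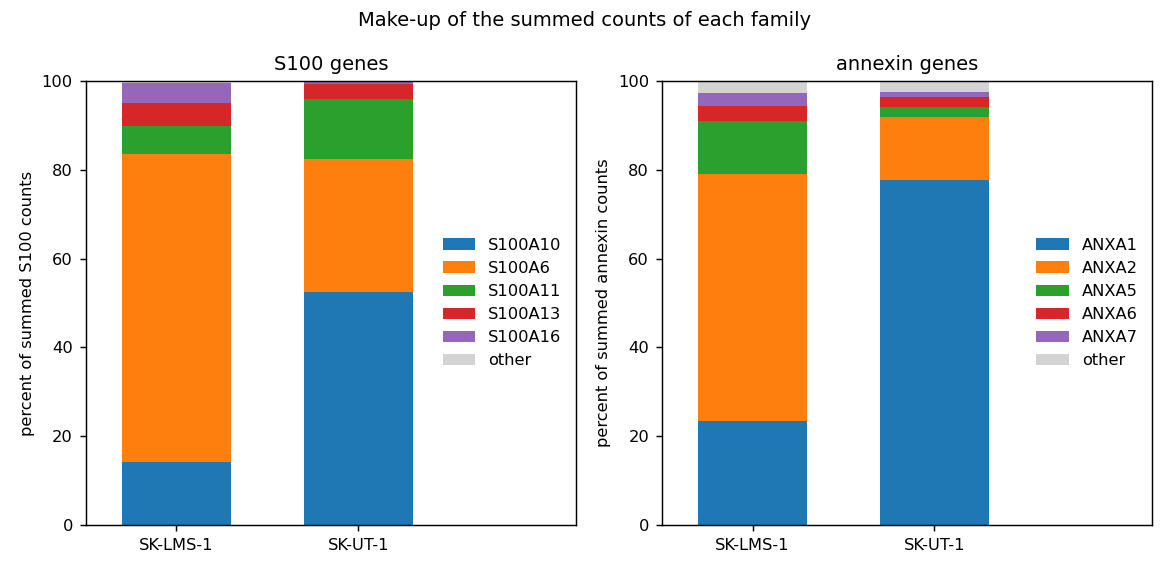
Percent of the summed counts of each family held by its 5 most abundant members and by all others, with 1 bar per library, for the S100 genes (left) and the annexins (right). S100A6 and ANXA2 are the largest parts in SK-LMS-1 cells, at 69.4% and 55.8%, and S100A10 and ANXA1 in SK-UT-1 cells, at 52.4% and 77.8%.

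Ratios between 2 members inside a library do not depend on how libraries are scaled. The 10 ratios computed were chosen with the values of the members known and are descriptions. S100A10 and ANXA2, the subunits of the tetramer, went opposite ways. Per length, the library held 0.124 S100A10 transcripts for each ANXA2 transcript in SK-LMS-1 cells and 1.60 in SK-UT-1 cells, a 12.9-fold higher ratio in SK-UT-1 cells (11.9 to 13.9). The ratio of ANXA1 to ANXA2 was 0.493 in SK-LMS-1 cells and 6.44 in SK-UT-1 cells, 13.1-fold higher in SK-UT-1 cells (12.5 to 13.6). S100A10 and ANXA1 differed between the lines by nearly the same factor. The ratio of S100A10 to ANXA1 was 0.252 in SK-LMS-1 cells and 0.248 in SK-UT-1 cells, and the interval of its change, 0.939 to 1.09 for SK-LMS-1 cells over SK-UT-1 cells, included 1. S100A11 and its partner ANXA1 were both higher in SK-UT-1 cells, but the ratio of S100A11 to ANXA1 was 0.192 in SK-LMS-1 cells and 0.114 in SK-UT-1 cells, 1.68-fold higher in SK-LMS-1 cells (1.49 to 1.88). S100A6 stood at 61.7 transcripts for each of its partner ANXA11 in SK-LMS-1 cells and 44.9 in SK-UT-1 cells, 1.37-fold higher in SK-LMS-1 cells (1.18 to 1.60).

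CpG-rich and CpG-poor promoters were found among the members higher in either line. Windows of 27 members were in the RefSeq table, and 26 of them had their start within 500 bases of the gene start in the count table. ANXA8, ANXA13 and S100B were not in it. A CpG ratio, observed over expected from base composition, of 0.6 or more was found in 11 of the 15 measured members and in 0 of the 12 others, whose highest was 0.293, against 48.9% of all 35116 promoters. No share was computed for the promoters of measured and of unmeasured genes apart, so the split cannot be called particular to these members. The limit of 0.6, a common bound for CpG islands, was set after the windows had been read. ANXA1 and ANXA10, with 0 CpG in the window, S100A16 (ratio 0.118) and S100A2 (0.189) were the measured members below it. ANXA1 is therefore an abundant gene with an AT-rich promoter, with 37.7% G and C against a median of 58.7% over all promoters. S100A10 had 71.7%, ANXA5 76.3% and ANXA2 76.0%.

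A TATAAA match on the strand of the gene, lying between 40 and 15 bases before the start, was found in 7 of the 27 windows, against 2.30% of all promoters. These were ANXA1 and ANXA2, 31 bases before the start in both, together with ANXA10, S100A4, S100A7, S100A9 and S100P. ANXA1 and ANXA2, which went opposite ways, therefore share this element. Over whole windows, TATAAA was present in 10 of 27 (11.5% of all promoters), GGGCGG in 11 (45.0%), TGANTCA in 4 (7.71%), the TEAD element GGAATG in 1 (14.0%), the E-box CANNTG in 21 (68.7%) and the kappa-B element of NF-kappa-B, searched in 1 fixed spelling, in 0 (0.191%). TGANTCA was found in ANXA2, S100A2, S100A3 and S100A12, and GGAATG in S100A16. Such matches are letters in a window and do not show binding.

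The 15 S100 genes of chromosome 1 lie in a stretch where other genes tended to be higher in SK-UT-1 cells. Of 121 other genes within 1 Mb of them, 49 were measured, of which 4 (8.16%) were higher by 2-fold or more in SK-LMS-1 cells and 18 (36.7%) in SK-UT-1 cells, with a median log2 ratio of -0.65. The same held for the long arm as a whole beyond 125 Mb, where 13.6% of 588 measured genes were higher by 2-fold or more in SK-LMS-1 cells and 37.9% in SK-UT-1 cells, with a median of -0.67. The part of this in the members' ratios was not tested. S100A10 and S100A11, at -2.30 and -1.57, lay below that median, next to THEM4 at -1.49. S100A2 at -0.80, between S100A6 and S100A16, also lay below it, with an interval that spanned 0. S100A6 at 0.80, S100A13 at 0.19 and S100A16 at 3.48 lay above it, although the nearest measured genes on one side, CHTOP, SNAPIN and ILF2, stood at -0.77, -0.97 and -1.16. Between the S100A11 and S100A9 genes lies FLG, filaggrin, which begins with an S100-like domain. It had 48 counts in SK-LMS-1 cells and 0 in SK-UT-1 cells. Against the floor it was 19.7-fold higher in the SK-LMS-1 library, with an exact lower limit of 15.4. FLG was the 1 measured gene among 29 of the epidermal differentiation complex, 26 of which had 0 counts in both lines. Its antisense partner FLG-AS1, counted on its own strand, had 61 counts in SK-LMS-1 cells and 2 in SK-UT-1 cells.

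**Figure D4:**
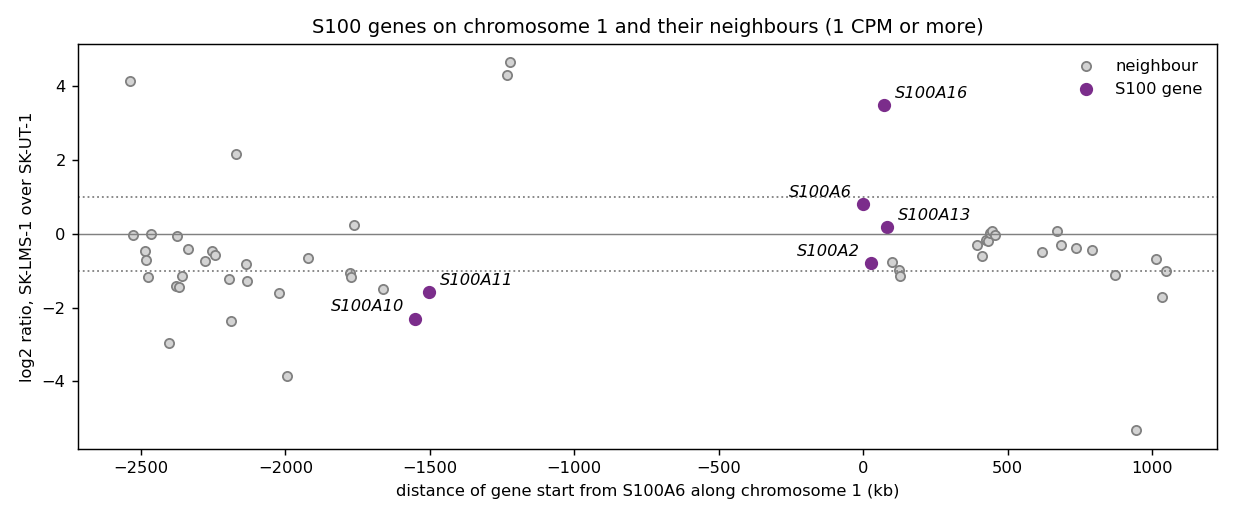
Log2 ratio of SK-LMS-1 over SK-UT-1 for measured genes within 1 Mb of the chromosome 1 S100 genes, against the distance of each gene start from that of S100A6 in kb. Purple points are S100 genes and grey points their neighbours, and dotted lines mark 2-fold. S100A10 and S100A11 lie among neighbours below 0, and S100A16 at 3.48 above them.

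Genes that work with S100 proteins and annexins were taken from lists of partners, receptors and pathways. Over all measured genes, 21.9% were higher by 2-fold or more in SK-LMS-1 cells and 18.3% in SK-UT-1 cells. Lists can share genes, and DYSF and PDCD6 are on both the binding partner and the membrane repair lists. Of 12 binding partners, all measured, 2 were higher by 2-fold or more in SK-LMS-1 cells, 1 in SK-UT-1 cells and 9 stayed under 2-fold, with a median log2 ratio of -0.04. AHNAK, the giant scaffold that holds the S100A10 and ANXA2 complex at the membrane, stood at 2018 CPM in SK-LMS-1 cells and 2132 CPM in SK-UT-1 cells. CACYBP, the calcyclin-binding protein, was 2.83-fold higher in SK-UT-1 cells (2.46 to 3.25), at 40.4 CPM in SK-LMS-1 cells and 114 CPM in SK-UT-1 cells. DYSF, a ferlin of membrane repair, was 2.95-fold higher in SK-LMS-1 cells (1.97 to 4.51) and GCA, a penta-EF-hand protein, 2.55-fold higher in SK-LMS-1 cells (1.73 to 3.82). MYH9, the myosin heavy chain bound by S100A4, stood at 2250 CPM in SK-LMS-1 cells and 1134 CPM in SK-UT-1 cells, just under 2-fold.

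Of 10 receptors, 5 were measured, 3 of them higher by 2-fold or more in SK-LMS-1 cells, 0 in SK-UT-1 cells and 2 under 2-fold. The median of 3.84 is the value of CD36, which passed the filter only through SK-LMS-1 cells and was set by the floor, and over the 4 receptors with 10 counts in both libraries the median was 1.81. ALCAM and MCAM, adhesion molecules that bind S100 proteins, were much higher in SK-LMS-1 cells. ALCAM had 808 CPM in SK-LMS-1 cells and 24.1 CPM in SK-UT-1 cells, 33.5-fold higher in SK-LMS-1 cells (29.0 to 38.9). MCAM had 93.4 CPM in SK-LMS-1 cells and 6.46 CPM in SK-UT-1 cells, 14.5-fold higher in SK-LMS-1 cells (10.9 to 19.6). The scavenger receptor gene CD36 had 35 counts in SK-LMS-1 cells and 0 in SK-UT-1 cells. Against the floor it was 14.3-fold higher in the SK-LMS-1 library, with an exact lower limit of 11.1. AGER, the receptor RAGE, had 12 counts in SK-LMS-1 cells and 22 in SK-UT-1 cells, while TLR4 and the formyl peptide receptor genes FPR1, FPR2 and FPR3, through which S100A8 with S100A9 and ANXA1 signal, had 0 counts in both.

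Plasminogen activation at the cell surface, the process served by the S100A10 and ANXA2 tetramer, had 6 of 8 measured genes higher by 2-fold or more in SK-LMS-1 cells and 0 in SK-UT-1 cells, with a median of 1.96. PLAT, the tissue activator that the tetramer binds, was 5.18-fold higher in SK-LMS-1 cells (4.29 to 6.30), at 87.6 CPM in SK-LMS-1 cells and 16.9 CPM in SK-UT-1 cells. The inhibitor gene SERPINB2 had 10812 counts in SK-LMS-1 cells and 0 in SK-UT-1 cells. Against the floor it was 4427-fold higher in the SK-LMS-1 library, with an exact lower limit of 3600. PLG, plasminogen itself, had 0 counts in both.

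Plasma membrane repair, in which annexins seal wounds, had 3 of 17 measured genes higher by 2-fold or more in SK-LMS-1 cells, 0 in SK-UT-1 cells and 14 under 2-fold, with a median of 0.70. MYOF, a ferlin, was 4.22-fold higher in SK-LMS-1 cells (4.03 to 4.41), at 1312 CPM in SK-LMS-1 cells and 311 CPM in SK-UT-1 cells. CHMP4B, a subunit of the ESCRT-III filament, was 2.44-fold higher in SK-LMS-1 cells (2.11 to 2.83). PTRF, now called CAVIN1, stood at 366 CPM in SK-LMS-1 cells and 728 CPM in SK-UT-1 cells, just under 2-fold.

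**Figure D5:**
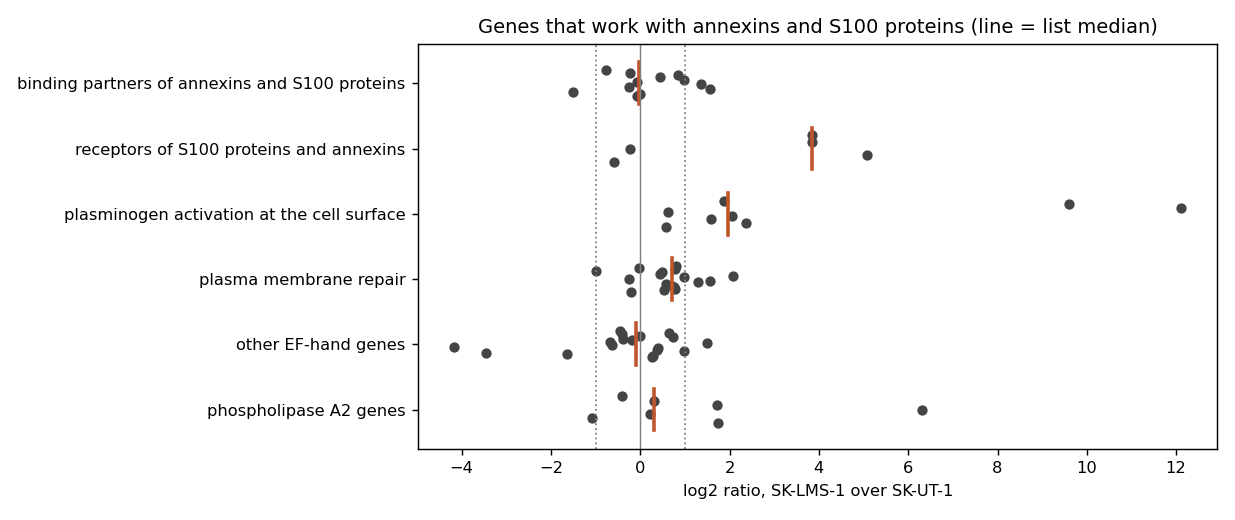
Log2 ratio of SK-LMS-1 over SK-UT-1 for each measured gene of 6 lists, with 1 point per gene and a line at each list median. Dotted lines mark 2-fold. The medians for receptors (3.84, or 1.81 over the 4 genes with 10 counts in both libraries) and plasminogen activation (1.96) lie to the right, and those for binding partners (-0.04) and other EF-hand genes (-0.09) near 0.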

How the data were processed

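Total RNA was sequenced with a stranded SMARTer kit, 1 library per line. The table gives raw counts, which the authors obtained with featureCounts 2.0.1 on hg38 and a UCSC annotation, strand setting 1, per the file headers. By those headers a fragment could count for several genes it overlapped, and no option for multiply aligned reads was set. The aligner is among the details not given in the sources used here. No member shared exon bases with another gene on its strand. Of the table's count columns 2 fit neither sample and were left unused.

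CPM was TMM-scaled (factor 0.949 for the SK-LMS-1 library, 1.05 for SK-UT-1) in edgeR 4.0.16 and R 4.3.3. TPM used the deposited exon lengths. In ratios, counts under 3 were set to 3, unless a ratio is given as counted. Intervals are Clopper-Pearson (conditional binomial) for folds and shares, and exact conditional for ratios between members, from scipy 1.17.1. They cover counting error only, since PCR copies without molecular identifiers are counted as if separate molecules. One library a line leaves no spread to test with, so no test was run. The computation was tested on simulated counts. Alternatives were library totals, DESeq2 1.42.0 size factors and upper quartile factors, other filters, a floor of 1 count, a 4-fold rule, intervals wholly beyond 2-fold, and thinning of the deeper library.

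Every member is named. From each of 13 other lists, the rule took up to 3 genes per direction among those at 5 CPM or more and at least 2-fold different, and the most abundant gene of each cell type list, and some of these are not reported here. Further genes were named after their values were seen. The members and lists were chosen with earlier results of these data known. A list of near relatives had 3 of 16 genes measured, S100PBP, FLG and ANXA2P2.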

Additional observations from a re-analysis of the deposited data

How the results depend on the processing

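The number of S100 genes higher by 2-fold or more in SK-LMS-1 cells was 1 under every alternative run, and the number of annexins higher in SK-UT-1 cells was 2 under every alternative run. With a 4-fold rule, 1 S100 gene was higher in SK-UT-1 cells, S100A10, and 0 annexins were higher in SK-LMS-1 cells. Annexins higher in SK-LMS-1 cells numbered 2 at 5 CPM or more, with 10 counts in both libraries, or when only intervals wholly beyond 2-fold were counted, since ANXA10 then dropped out. The S100 median of -0.31 was 0.19 without a filter on low counts, at 5 CPM or more, and with 10 counts in both libraries, because these settings change which low genes enter. Library totals and upper quartile factors moved the median of all measured genes by -0.15 and -0.13, and members moved by the same amounts. The log2 ratio of the summed S100 counts was -0.57 and -0.55 under them, against -0.42 with TMM, and that of the summed annexin counts -0.73 and -0.72, against -0.58. Both sums stayed lower in SK-LMS-1 cells, an alternative chosen after seeing the data. Of 75 values of single members under alternatives, 64 stayed inside the counting interval, 11 did not, and 1 changed sign, ANXA6 under library totals. No paired analysis was possible because each line has 1 library. Depth limits statements on the members with fewer than 10 counts in each library, of which there are 16.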

Other observations

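Other EF-hand genes, which sense calcium by the same fold as the S100 proteins, mostly stayed under 2-fold. Of 18 measured genes, 1 (5.56%) was higher by 2-fold or more in SK-LMS-1 cells, 3 (16.7%) in SK-UT-1 cells and 14 (77.8%) stayed under 2-fold. Over all measured genes these shares were 21.9%, 18.3% and 59.8%. The median log2 ratio of the list was -0.09, and 0.13 over the 16 genes with 10 counts in both libraries. CALM3, a calmodulin gene, stood at 263 CPM in SK-LMS-1 cells and 825 CPM in SK-UT-1 cells, 3.14-fold higher in SK-UT-1 cells (2.98 to 3.31). CALM2, which encodes the same protein, stood at 2597 CPM in SK-LMS-1 cells and 2145 CPM in SK-UT-1 cells. HPCAL1, a neuronal calcium sensor family gene, was 2.82-fold higher in SK-LMS-1 cells (2.28 to 3.51). EFHD1, a mitochondrial calcium sensor, had 0 counts in SK-LMS-1 cells and 66 in SK-UT-1 cells, and passed the filter only through SK-UT-1 cells. Against the floor it was 17.9-fold higher in the SK-UT-1 library, with an exact lower limit of 14.2. CALML4, a calmodulin-like gene, was 11-fold higher in SK-UT-1 cells (4.84 to 30.8), with 6 counts in SK-LMS-1 cells and 81 in SK-UT-1 cells. It also passed the filter only through SK-UT-1 cells.

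Annexins were first known as lipocortins, inhibitors of phospholipase A2. Of 7 measured genes on a phospholipase A2 list, 3 (42.9%) were higher by 2-fold or more in SK-LMS-1 cells and 1 (14.3%) in SK-UT-1 cells. Over all measured genes the shares were 21.9% and 18.3%. The other 3 stayed under 2-fold, and the median log2 ratio was 0.30. These 3 include PLAA, which encodes a phospholipase A2 activating protein and not such an enzyme. PLA2G4A, the cytosolic enzyme that frees arachidonic acid, had 195 counts in SK-LMS-1 cells and 0 in SK-UT-1 cells. Against the floor it was 79.8-fold higher in the SK-LMS-1 library, with an exact lower limit of 64.3, and it passed the filter only through that library. A link between the levels of these genes and of annexins was not tested. PLA2G12A was 3.36-fold higher in SK-LMS-1 cells (2.66 to 4.28), and PLA2G15, a lysosomal enzyme, 2.12-fold higher in SK-UT-1 cells (1.41 to 3.27).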
